A study of Mus musculus with 39 samples.

Results

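H3K27me3 at gene transcription start sites (TSS) was compared between granule cells of the mouse cerebellum at postnatal day 12 (P12, 4 libraries) and at postnatal day 7 (P7, 5 libraries). The libraries were chosen by stage and antibody from a ChIP-seq series of 39 libraries on H3K4me3, H3K27me3 and their inputs at P7, P12 and P21. All 9 libraries come from C57Bl/6J cerebellum, and no allele or drug is named for either stage. The P12 samples are nuclei sorted as positive for both NeuN and NeuroD1, whereas the P7 samples are granule cell progenitors taken from a Percoll density gradient. P12 chromatin was also sonicated for longer. Both stages were fixed in formaldehyde and precipitated with the same H3K27me3 antibody. Stage, isolation and sonication change together and cannot be told apart here, so each difference below is between sorted P12 nuclei and gradient-isolated P7 cells. Either of a pair of library kits (TruSeq ChIP, NEBNext Ultra II) was used, with no record of the kit per library. At each stage a single input library serves replicates 1 and 2, and each later replicate has its own input, which is called the input arrangement here. Nothing states that replicates come from separate animals, so p-values measure only the spread between these libraries. In bulk chromatin, fewer cells with the mark and less mark per cell cannot be told apart.

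H3K27me3 is deposited by Polycomb repressive complex 2 and marks genes held silent, among them regulators of other lineages and genes of later stages of the same lineage. Promoters that carry it together with H3K4me3, a mark of active or poised promoters, are called bivalent. Granule cell progenitors divide in the external granule layer under Sonic hedgehog, then leave the cell cycle, migrate inward, form synapses with mossy fibres and acquire the channels and receptors of mature granule cells. The series asks, by its title, how bivalency bears on the timing of that sequence.

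Of 24045 TSS in the count table, 18089 had enough counts to be tested, and H3K27me3 differed between P12 and P7 at 6592 of them (36.4% of TSS tested, edgeR's quasi-likelihood test, adjusted p under 0.05). The mark was higher at P12 at 2609 TSS (14.4%) and lower at 3983 (22.0%). The number of higher TSS rested in part on 1 library: it was 1364 without P12 replicate 4. A stricter class, called stable below, held 484 TSS that were higher (2.68% of those tested) and 1812 that were lower (10.0%). A stable TSS passed the test under TMM scaling and under a scaling that follows signal level, passed it without each P12 and P7 library in turn, kept its sign within each input arrangement, and had no overlap between the libraries of the stages. Lack of overlap at a stable gene below is thus fixed by this rule and adds no support. Among all called TSS, 1295 higher and 3125 lower ones had no overlap. Over the stable TSS, the median log2 fold change was 1.49 (0.77 to 4.79) where the mark was higher and -1.97 (-4.47 to -0.82) where it was lower. Falls of at least 2 on the log2 scale were found at 866 stable TSS and rises of that size at 113.

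Library depth and contrast differed between the stages. Total counts were 432257, 475470, 1052849 and 970711 in P12 replicates 1 to 4, against 925735, 566960, 529047, 2035801 and 1016221 in P7 replicates 1 to 5. The ratio of the 95th percentile of counts over TSS to the median was 5.65 to 12.9 in P12 libraries and 22.1 to 45.0 in P7 libraries, so strongly marked TSS stood out less from the bulk of TSS at P12. With that difference, the median log2 fold change fell with the level of the mark, being 1.04 in the lowest of 10 equal classes of TSS by mean level and -1.57 in the highest (0.04 and -0.14 under the trended scaling, which removes the curve of signal on level in each library). The part of antibody enrichment or background in this was not tested. TMM put the median log2 fold change of all TSS at 0.18. Library totals in place of TMM put it at 1.14 and DESeq2-style size factors (RLE) at 0.30, and changes are read relative to these medians. Values are given as TMM-scaled CPM (read counts relative to library size) in replicate order, and list medians are log2 fold changes, P12 over P7, with the trended median beside them. Where a count in a list is 5 or fewer its members are named, with a few left out, and those outside the naming rule were named after their values were seen. Lists overlap in some members. A pair of CPM values with ± gives the mean and SD over the 4 P12 and the 5 P7 libraries, and a value with no unit after a gene is its log2 fold change with its SE.

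Promoters of 8 genes with stable changes are shown to let the CpG content, a property that Polycomb targets in mammals often share, be read from the bases themselves. They run from 250 bases before to 50 bases after the RefSeq start on GRCm38.p6, 5′ to 3′, and capitals mark each CpG. The first 4 belong to genes where H3K27me3 was lower at P12 (an immediate early factor, an NMDA receptor subunit, an adenosine receptor and the vesicular glutamate transporter of granule cells). They hold 21, 33, 26 and 13 CpG sites. The last 4 belong to genes where it was higher (a zinc finger repressor, a Sonic hedgehog co-receptor, a chemokine receptor and a subunit of ribonucleotide reductase). They hold 9, 17, 20 and 40 CpG sites, so single promoters of either direction range from sparse to dense.
Junb, chr8:84978699-84978998, minus strand: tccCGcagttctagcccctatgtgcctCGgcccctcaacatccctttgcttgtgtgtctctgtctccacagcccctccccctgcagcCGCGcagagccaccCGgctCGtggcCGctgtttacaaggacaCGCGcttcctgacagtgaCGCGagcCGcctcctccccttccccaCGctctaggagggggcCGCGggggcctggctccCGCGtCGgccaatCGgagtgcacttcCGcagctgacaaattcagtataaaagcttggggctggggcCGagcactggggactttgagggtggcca
Grin1, chr2:25319138-25319437, minus strand: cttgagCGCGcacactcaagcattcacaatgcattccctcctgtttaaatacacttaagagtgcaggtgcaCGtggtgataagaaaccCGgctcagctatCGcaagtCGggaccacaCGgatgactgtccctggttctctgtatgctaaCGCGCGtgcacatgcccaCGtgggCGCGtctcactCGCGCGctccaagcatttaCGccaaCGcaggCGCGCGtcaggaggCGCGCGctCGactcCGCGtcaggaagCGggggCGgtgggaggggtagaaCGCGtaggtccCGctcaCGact
Adora1, chr1:134235408-134235707, minus strand: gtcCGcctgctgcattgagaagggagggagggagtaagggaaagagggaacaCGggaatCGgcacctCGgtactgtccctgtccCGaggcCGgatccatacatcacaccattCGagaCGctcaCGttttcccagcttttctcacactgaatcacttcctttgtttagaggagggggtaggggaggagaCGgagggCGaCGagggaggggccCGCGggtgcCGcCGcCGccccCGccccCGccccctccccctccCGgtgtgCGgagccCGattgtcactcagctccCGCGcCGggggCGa
Slc17a7, chr7:45163671-45163970, plus strand: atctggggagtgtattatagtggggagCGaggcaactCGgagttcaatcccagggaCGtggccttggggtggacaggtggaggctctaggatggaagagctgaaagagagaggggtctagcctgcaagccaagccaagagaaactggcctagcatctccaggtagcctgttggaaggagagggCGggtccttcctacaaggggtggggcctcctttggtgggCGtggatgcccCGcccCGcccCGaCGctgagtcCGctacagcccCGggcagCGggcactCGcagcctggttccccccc
Zeb2, chr2:45117393-45117692, minus strand: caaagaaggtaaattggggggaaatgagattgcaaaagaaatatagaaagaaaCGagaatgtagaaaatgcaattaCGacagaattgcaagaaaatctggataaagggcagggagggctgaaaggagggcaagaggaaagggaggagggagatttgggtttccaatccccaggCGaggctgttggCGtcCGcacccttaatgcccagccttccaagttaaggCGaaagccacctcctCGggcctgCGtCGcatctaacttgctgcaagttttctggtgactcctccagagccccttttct
Gas1, chr13:60177486-60177785, minus strand: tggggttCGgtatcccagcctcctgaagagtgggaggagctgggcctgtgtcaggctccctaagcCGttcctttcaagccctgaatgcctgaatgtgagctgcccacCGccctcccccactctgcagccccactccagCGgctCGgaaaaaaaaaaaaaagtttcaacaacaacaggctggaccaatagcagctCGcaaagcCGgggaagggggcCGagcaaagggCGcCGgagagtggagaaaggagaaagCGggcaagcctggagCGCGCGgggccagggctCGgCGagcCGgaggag
Cxcr4, chr1:128592250-128592549, minus strand: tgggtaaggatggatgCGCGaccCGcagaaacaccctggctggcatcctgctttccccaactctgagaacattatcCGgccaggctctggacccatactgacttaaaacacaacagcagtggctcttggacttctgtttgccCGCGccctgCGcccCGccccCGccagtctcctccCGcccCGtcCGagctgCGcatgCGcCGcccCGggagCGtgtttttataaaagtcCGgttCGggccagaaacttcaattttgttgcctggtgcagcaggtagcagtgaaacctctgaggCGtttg
Rrm2, chr12:24708004-24708303, plus strand: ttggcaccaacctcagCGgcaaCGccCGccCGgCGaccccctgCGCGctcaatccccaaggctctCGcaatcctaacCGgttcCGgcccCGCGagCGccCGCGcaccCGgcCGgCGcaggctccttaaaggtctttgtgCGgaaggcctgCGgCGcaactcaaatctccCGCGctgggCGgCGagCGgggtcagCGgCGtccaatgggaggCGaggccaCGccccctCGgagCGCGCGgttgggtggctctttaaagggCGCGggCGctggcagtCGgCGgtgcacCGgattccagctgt

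H3K27me3 was lower at P12 at most genes of mature granule cells. Of 24 tested TSS of 28 listed genes, 19 were lower at P12 and 0 were higher, with a median of -1.92 (-1.66 trended) beside 0.18 (0.04) over all TSS. The other 5 were not called. The median was -2.75 over replicates 1 and 2 and -1.79 over the later ones, and 15 of the falls were stable. Cacna1g, the pore subunit of a low-threshold calcium channel, had 32.7, 32.3, 63.4 and 40.3 CPM in P12 libraries, against 663, 899.7, 987, 845 and 674 CPM in P7 libraries (log2 fold change -4.24 ± 0.29 (SE), adjusted p = 3.49e-17). Every P7 library of Cacna1g lay far above every P12 library, and P12 replicate 3 was the highest of its stage. Gabrd, the delta subunit of extrasynaptic GABA receptors that carry tonic inhibition, had 37.9, 48.4, 78.2 and 43.7 CPM at P12, against 656, 765, 654, 658 and 649.6 CPM at P7 (log2 fold change -3.68 ± 0.28 (SE), adjusted p = 5.38e-16). The P7 libraries of Gabrd lay close together apart from replicate 2. Slc17a7, the vesicular glutamate transporter whose promoter is shown above, had 29.3, 16.1, 43.6 and 30.02 CPM at P12, against 174, 189, 260.4, 304 and 224 CPM at P7 (log2 fold change -2.90 ± 0.26 (SE), adjusted p = 1.16e-13). The stages did not overlap at any of these genes, as the rule for stable calls requires.

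Calcium channel genes were mostly lower at P12 under each scaling, and other ion channel genes mostly under TMM. Among calcium channel subunits 16 of 23 tested TSS were lower and 0 were higher, with a median of -1.51 (-1.09 trended, -0.55 with library totals). When trended 14 were lower and 1 higher, and with library totals 13 were lower and 3 higher. Cacna1e, an R-type pore subunit, averaged 34.7 ± 15.2 CPM at P12 and 478 ± 50.5 CPM at P7 (SD), and Cacna1i, another low-threshold pore subunit, 64.4 ± 40.1 CPM at P12 and 601 ± 155 CPM at P7. Of 88 potassium channel TSS, 49 were lower and 6 higher, with a median of -1.10 (-0.34 trended). When trended 35 were lower and 13 higher, and with library totals 33 were lower and 29 higher. Without P12 replicate 3, 2 potassium channel TSS were higher in place of 6. Kcnk4, a leak potassium channel, had 68.8, 51.7, 106 and 69.5 CPM at P12, against 730.5, 834, 784, 698 and 778 CPM at P7 (log2 fold change -3.35 ± 0.26 (SE), adjusted p = 1.04e-15). Kcnh1 (-3.39 ± 0.27) and the Shaker-type Kcna6 (-2.91 ± 0.26) were the other stable falls named by the rule. Sodium, HCN and leak channel subunits had 11 lower and 1 higher (Scn3a) of 18 (median -1.003, -0.59 trended), 8 lower and 0 higher when trended and 6 of each with library totals, and Scn3a was not called without P7 replicate 4, P12 replicate 2 or P12 replicate 3. Hcn2, a hyperpolarization-activated pacemaker channel, averaged 44.5 ± 30.9 CPM at P12 and 432 ± 163 CPM at P7. The sodium channel gene Scn8a (-2.27) fell as well.

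Receptor genes were also more often lower than higher under TMM and when trended, but not in every list with library totals. Glutamate receptors had 16 lower and 2 higher of 24 TSS, with a median of -0.91 (-0.51 trended, and 0.05 with library totals, where all TSS had 1.14). Grin1, the subunit every NMDA receptor requires, had 30.98, 33.9, 36.6 and 33.5 CPM at P12, against 549.6, 666, 497, 482 and 429.6 CPM at P7 (log2 fold change -3.94 ± 0.27 (SE), adjusted p = 6.08e-17). The 4 P12 libraries of Grin1 lay close together, far below the lowest P7 library. Grm4, a presynaptic metabotropic receptor of parallel fibres, had 12.1, 11.3, 45.5 and 45.5 CPM at P12, against 331, 429, 787, 844 and 422 CPM at P7 (log2 fold change -4.26 ± 0.31 (SE), adjusted p = 5.06e-16). At Grm4 the later replicates were higher than replicates 1 and 2 in P12 libraries. The higher members were Grm7 and Gria4, and leaving out any single P12 library, or P7 replicate 1, 2 or 3, left 1 of them called. GABA and glycine receptors had 10 lower and 0 higher of 25, with the GABA-B subunit Gabbr2 at 20 ± 18.9 CPM at P12 and 292 ± 179 CPM at P7. The list median was -0.62 (-0.45 trended, 0.35 with library totals). When trended 8 were lower and 1 higher, and with library totals 3 were lower and 8 higher. Receptors of monoamines, acetylcholine and peptides had 41 lower and 4 higher of 77 (median -0.83, -0.07 trended, 0.12 with library totals), with 23 lower and 13 higher when trended and 24 lower and 32 higher with library totals. The higher ones under TMM (Htr2b, Htr3a, Chrna6 and Npy6r) numbered 1 without P12 replicate 1, 2 or 4 and 2 without P7 replicate 1 or 2. Adora1, an inhibitory adenosine receptor, had 22.4, 24.2, 53.5 and 34.3 CPM at P12, against 511, 504, 587, 624 and 496 CPM at P7 (log2 fold change -3.98 ± 0.27 (SE), adjusted p = 3.49e-17). Neuropeptide and hormone genes had 28 lower and 2 higher (Cort and Agrp) of 44 (median -1.07, -0.04 trended), with 13 lower and 4 higher when trended. The higher count under TMM was 0 without P12 replicate 4 and 1 without P12 replicate 1 or 3, P7 replicate 2 or P21 replicate 1 or 2. Vgf, a neuropeptide precursor, averaged 41.02 ± 11.1 CPM at P12 and 550.4 ± 79.7 CPM at P7.

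**Figure D1:**
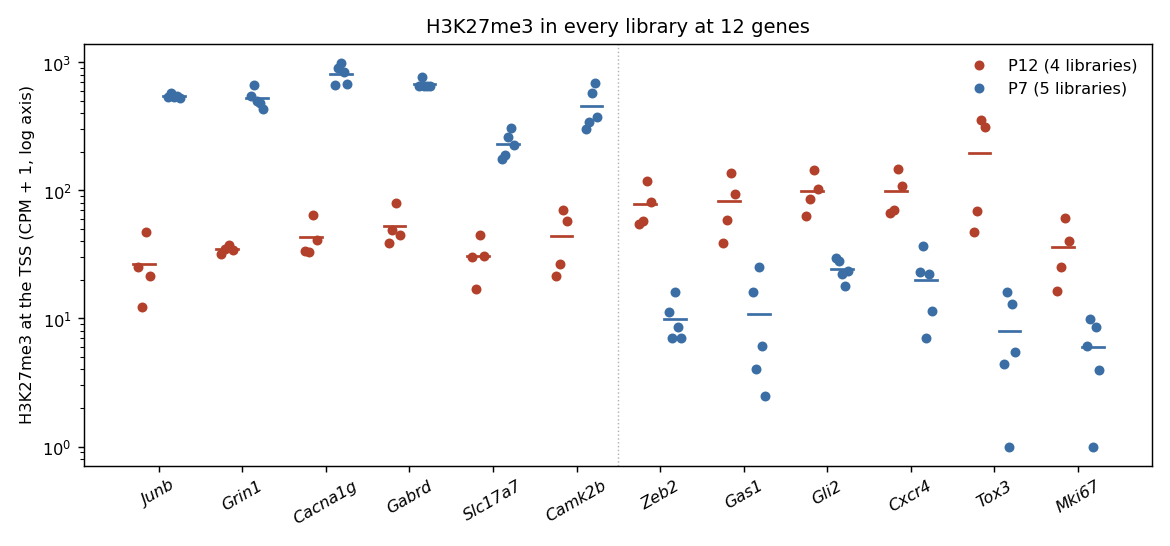
H3K27me3 level in each library (TMM-scaled CPM plus 1, log axis) at 12 named genes, P12 libraries left of P7 libraries in each panel, with bars at the stage means. At Junb, Grin1, Cacna1g, Gabrd, Slc17a7 and Camk2b all P12 libraries lie below all P7 libraries, and at Zeb2, Gas1, Gli2, Cxcr4, Tox3 and Mki67 all lie above. All 12 are stable calls, for which this separation was required.

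Genes of both sides of the synapse were more often lower than higher under TMM and when trended. Presynaptic vesicle and release genes had 33 lower and 0 higher of 54 TSS, with a median of -0.996 (-1.13 trended), and with library totals 17 lower and 14 higher. Rims4, an active zone protein, averaged 29.8 ± 13.3 CPM at P12 and 366 ± 97.3 CPM at P7 and Nptx1, a secreted pentraxin of excitatory synapses, 73.8 ± 23.5 CPM at P12 and 759 ± 209.6 CPM at P7. Nptx1 has another TSS within 2 kb. Postsynaptic scaffold and adhesion genes had 26 lower and 3 higher of 55 (median -0.79, -0.81 trended, 0.11 with library totals, where 14 were lower and 13 higher). Camk2b, the kinase subunit that bundles actin in spines, had 20.7, 25.8, 69.3 and 56.6 CPM at P12, against 301, 342, 572, 687 and 374 CPM at P7 (log2 fold change -3.37 ± 0.28 (SE), adjusted p = 9.35e-15). The scaffold gene Shank1 (-3.13 ± 0.27) and the adhesion gene Lrrtm1 (-2.74 ± 0.27) also fell. Against this direction, Homer3 rose (33.2 ± 17.8 CPM at P12 and 7.86 ± 2.18 CPM at P7), as did Adgrl2 (1.94 ± 0.39) and Slitrk6, which was not a stable call. Homer3 encodes a scaffold of metabotropic glutamate receptors known from Purkinje cells, and Adgrl2 a latrophilin.

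Activity-dependent genes were mostly lower as well under TMM. Of 28 tested TSS of immediate early genes, 20 were lower and 1 was higher, with a median of -1.74 (-0.81 trended), and 16 falls were stable. Junb, an AP-1 subunit, had 24.1, 11.3, 46.5 and 20.6 CPM at P12, against 539, 579, 536, 549 and 529.9 CPM at P7 (log2 fold change -4.37 ± 0.29 (SE), adjusted p = 3.49e-17). The 5 P7 libraries of Junb lay close together, whereas the P12 libraries spread more widely in proportion. Fos, its partner in AP-1, had 15.5, 22.6, 12.9 and 18.9 CPM at P12, against 142, 147, 218, 187 and 154 CPM at P7 (log2 fold change -3.26 ± 0.28 (SE), adjusted p = 4.42e-14). Npas4, an activity-induced factor of inhibitory synapse formation, averaged 29.5 ± 8.31 CPM at P12 and 259 ± 28.5 CPM at P7. The higher member was Klf10, and leaving out any single P12 library, or P7 replicate 1, 3, 4 or 5, or P21 replicate 2, 3 or 4, ended its call. Neurotrophic factors and receptors had 13 lower and 0 higher of 17 under TMM, but 6 lower and 3 higher when trended (median -1.30, -0.38 trended). Bdnf, which granule cells release onto their neighbours, had 139, 139, 262 and 151 CPM at P12, against 820.1, 852, 666, 754 and 657 CPM at P7 (-2.12 ± 0.25). Bdnf kept a moderate level at P12, above all in replicate 3.

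The 12 largest stable falls spanned other functions too. Cbarp, a negative regulator of calcium channels, averaged 22.6 ± 14.9 CPM at P12 and 516 ± 123 CPM at P7, but the TSS of Atp5d lies within 2 kb of it. Fabp3, a fatty acid carrier, averaged 37.2 ± 11.8 CPM at P12 and 793 ± 53.4 CPM at P7, and Tuba4a, an alpha-tubulin, 47.9 ± 3.73 CPM at P12 and 901 ± 137 CPM at P7. Efna1, an ephrin ligand of Eph receptors, had 24.1, 25.8, 27.7 and 13.7 CPM at P12, against 489, 455.8, 409, 388 and 457 CPM at P7 (log2 fold change -4.28 ± 0.29 (SE), adjusted p = 3.49e-17). Hr, the hairless co-repressor, averaged 17.6 CPM at P12 and 363 CPM at P7, and Amer3, a binding partner of APC, 25.1 CPM at P12 and 409.5 CPM at P7. The non-coding Cistr averaged 18.5 CPM at P12 and 381 CPM at P7. Grin1os, annotated antisense to Grin1, averaged 69.6 CPM at P12 and 1232 CPM at P7, and its start lies at the far end of that gene, 1347 bases from the TSS of Lrrc26. Among other genes named here, Shank1, Dll4, Hoxc5, Fn1, Cdkn2a, Dio3, Stap2, Gabrb1 and Foxh1 also have another TSS within 2 kb. Outside these 12, the carbonic anhydrase-related Car11 averaged 66.8 ± 6.52 CPM at P12 and 1034 ± 193 CPM at P7, and 9 of 15 carbonic anhydrase genes were lower with 0 higher (median -0.73, -0.44 trended, 0.20 with library totals). Tubulins had 6 lower and 0 higher of 13 (median -0.80, -0.52 trended, 0.13 with library totals).

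**Figure D2:**
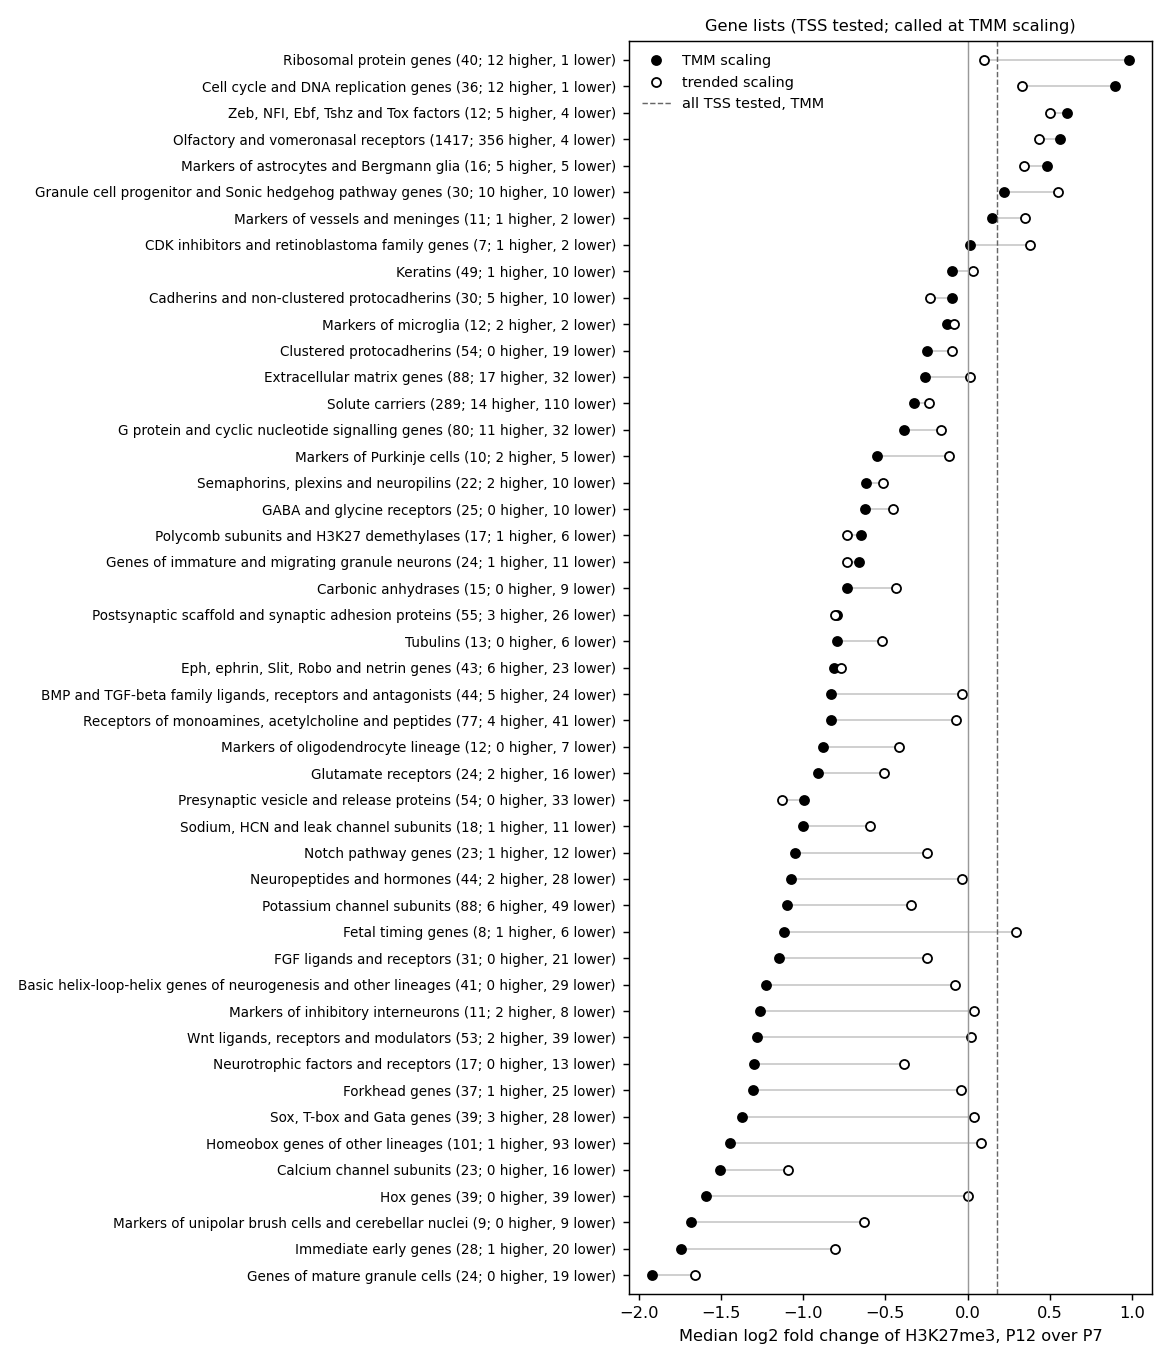
Median log2 fold change (P12 over P7) of the 47 gene lists, filled points under TMM and open points under the trended scaling, with a dashed line at the median of all TSS (0.18). Mature granule cell, calcium channel and presynaptic lists stay well below the line under both, whereas Hox and other homeobox genes return to near 0 when trended.

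Rises were fewer than falls among stable calls. The 12 tested Zeb, NFI, Ebf, Tshz and Tox factors, which include regulators of granule cell maturation, had 5 higher (Tox3, Zeb2, Tshz2, Ebf3 and Nfia) and 4 lower (Ebf4, Ebf2, Tshz3 and Tox2), with a median of 0.60 (0.50 trended). Tox3, an HMG-box nuclear protein, had 46.5, 67.8, 354 and 313 CPM at P12, against 3.38, 14.99, 0, 11.9 and 4.49 CPM at P7 (log2 fold change 4.79 ± 0.50 (SE), adjusted p = 4.29e-08). The rise was the largest among stable calls, and it was uneven, since P12 replicates 3 and 4 were several times replicates 1 and 2. Within replicates 1 and 2 the log2 fold change of Tox3 was 2.85 and within the later ones 5.55. Zeb2, a zinc finger repressor of neuronal and glial development, had 53.4, 56.5, 118 and 79.8 CPM at P12, against 10.2, 5.998, 15.1, 7.66 and 5.99 CPM at P7 (log2 fold change 3.24 ± 0.34 (SE), adjusted p = 2.57e-11). Peaks lay within 1 kb of the Zeb2 start in 2 of 4 P12 libraries and 0 of 5 P7 libraries. Its partner Zeb2os, which starts 6304 bases away, rose as well (3.79 ± 0.40, SE). Tshz2, a teashirt zinc finger gene, averaged 71.8 ± 43.3 CPM at P12 and 18.3 ± 6.37 CPM at P7.

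Progenitor and Sonic hedgehog pathway genes changed in both directions, in proportions that depended on the scaling. Of 30 tested TSS 10 were higher under TMM, 7 of them stable, and 10 were lower, 3 of them stable, with a median of 0.22 (0.55 trended). The share was 33.3% in each direction, beside 14.4% higher and 22.0% lower over all TSS. Over all TSS 2.68% were stable rises and 10.0% stable falls, so the 3 stable falls of 30 were near the general share. There were 13 higher and 5 lower when trended, and 19 higher and 2 lower with library totals. Replicates 1 and 2 alone gave 5 higher and 8 lower, and later replicates 7 higher and 2 lower. Without P12 replicate 4, 6 were lower. The list median was -0.07 over replicates 1 and 2 and 0.39 over later ones. Gas1, a co-receptor of Sonic hedgehog, had 37.9, 58.1, 136 and 93.5 CPM at P12, against 15.2, 2.999, 24.2, 5.103 and 1.497 CPM at P7 (log2 fold change 3.31 ± 0.40 (SE), adjusted p = 1.56e-08). Gli2, the main activating transcription factor of the pathway, had 61.97, 85.6, 144 and 101 CPM at P12, against 28.8, 26.99, 21.2, 17.01 and 22.4 CPM at P7 (log2 fold change 2.14 ± 0.29 (SE), adjusted p = 1.45e-08). Cxcr4, the chemokine receptor that holds progenitors in the outer layer, had 65.4, 69.4, 148 and 107 CPM at P12, against 21.98, 35.99, 6.06, 21.3 and 10.48 CPM at P7 (log2 fold change 2.37 ± 0.32 (SE), adjusted p = 2.15e-08). All 3 genes had no overlap between stages, as the rule for stable calls requires, and in each P12 replicate 3 was the highest library. H3K4me3 at Gli2 was 34.4 and 26.9 CPM in P12 libraries and 139.7, 82.2 and 111 CPM in P7 libraries. At Gas1 it was 55.3 and 51.6 CPM at P12 and 107, 101 and 129.6 CPM at P7, and at Cxcr4 it was 28.6 and 26.9 CPM at P12 and 149, 89.8 and 73.9 CPM at P7 (no test). The ratio of the 95th percentile to the median of H3K4me3 counts was also lower at P12, 3.67 and 3.46 in P12 libraries, against 9.06, 5.15 and 9.32 in P7 libraries. Median H3K4me3 over ribosomal protein genes was 77.4 CPM at P12 and 138 CPM at P7, and over the whole progenitor list 45.7 CPM at P12 and 87.2 CPM at P7. The part of that general difference at these 3 genes was not tested. The stable falls in this list were Cdon, another Sonic hedgehog co-receptor (-1.94 ± 0.26), the homeobox gene Meis2 (-1.88 ± 0.26) and Mab21l1 (-0.99 ± 0.29).

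Cell cycle and DNA replication genes had a low median level, 14.7 CPM at P12 and 7.92 CPM at P7. Of 47 in the count table, 36 had enough counts to be tested. Among these 36, 12 were higher and 1 (Ccnd3) was lower, with a median of 0.90 (0.33 trended, with 6 higher and 0 lower), and 4 rises were stable. At this level a TSS can pass the filter on counts through the stage where it is higher, and the part of that was not tested. Mki67, the proliferation antigen gene, had 15.5, 24.2, 60.4 and 39.5 CPM at P12, against 5.07, 8.997, 0, 7.66 and 2.99 CPM at P7 (log2 fold change 2.82 ± 0.41 (SE), adjusted p = 8.58e-08). Rrm2, the ribonucleotide reductase subunit of S phase, had 20.7, 19.4, 38.6 and 29.2 CPM at P12, against 1.69, 12, 12.1, 10.2 and 8.98 CPM at P7 (log2 fold change 1.73 ± 0.36 (SE), adjusted p = 7.46e-05). Cdk6, a G1 kinase, averaged 72.2 ± 23.8 CPM at P12 and 20.7 ± 12.4 CPM at P7. Mki67 and Rrm2 each had peaks in 2 of 4 P12 libraries and in 0 of 5 P7 libraries, whereas Cdk6 had them in 3 of 4 P12 libraries and in 5 of 5 P7 libraries. Of 7 CDK inhibitor and retinoblastoma genes 1 (Cdkn2d) was higher and 2 (Cdkn1c and Cdkn2a) were lower, with a median of 0.01 (0.38 trended). These shares, 14.3% and 28.6%, were near the 14.4% and 22.0% over all TSS. The call of Cdkn2d was lost without P7 replicate 1, 4 or 5 or P12 replicate 1, 3 or 4, and 1 gene was lower without P12 replicate 2. When trended, 2 were higher and 0 lower, and Cdkn2a turned to 0.20. Cdkn2b, an inhibitor of Cdk4 and Cdk6, averaged 349 ± 88.7 CPM at P12 and 347 ± 44.9 CPM at P7 (0.01 ± 0.23, adjusted p = 0.968), but it rose under the trended scaling (1.45, adjusted p = 5.25e-13, edgeR).

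Guidance and adhesion genes were more often lower than higher under TMM, and the share that was higher was at or near that over all TSS (14.4%) or below it. It was 13.95% in the Eph and netrin list, 9.09% among semaphorins, 16.7% among cadherins and 0 among clustered protocadherins. With library totals, lower calls did not outnumber higher ones in any of these lists. Eph, ephrin, Slit, Robo and netrin genes had 6 higher and 23 lower of 43 (median -0.81, -0.77 trended, 0.13 with library totals, where 15 were higher and 15 lower). Ntn1, the secreted cue netrin-1, had 55.1, 74.3, 295 and 196 CPM at P12, against 11.8, 2.999, 6.06, 31.5 and 22.4 CPM at P7 (log2 fold change 3.32 ± 0.31 (SE), adjusted p = 7.20e-13). Ntn1 had peaks within 1 kb of its start in 4 of 4 P12 and 3 of 5 P7 libraries. Its receptor gene Dcc also rose (37.1 ± 8.31 CPM at P12 and 12.7 ± 6.12 CPM at P7), whereas the receptor gene Unc5b fell (20.2 ± 12.1 CPM at P12 and 232 ± 62.6 CPM at P7). Epha8 fell too (-2.72 ± 0.27). Among semaphorins, plexins and neuropilins 2 of 22 were higher and 10 lower (median -0.62, -0.52 trended, 0.33 with library totals). The receptor gene Plxnb1 and the ligand gene Sema3a were the higher ones, the second being lost without any of 6 libraries (P7 replicates 1, 2 and 5, P12 replicates 1, 3 and 4). Plxnb1 rose (2.27 ± 0.46), while Plxna1 (-2.96 ± 0.29) and the ligand genes Sema6b (-3.29 ± 0.28) and Sema5b (-2.52 ± 0.26) fell. Cadherins and non-clustered protocadherins had 5 higher and 10 lower of 30. The higher ones were Pcdh18, Cdh9, Cdh18, Cdh19 and Pcdh19, and 3 were called without P7 replicate 1, P12 replicate 2 or P12 replicate 4. Their median was -0.10 (-0.23 trended, 0.01 with RLE factors and 0.82 with library totals). Pcdh18 rose (160.3 ± 49.4 CPM at P12 and 15.8 ± 6.28 CPM at P7) and Pcdh1 fell (98.5 ± 22.8 CPM at P12 and 1226 ± 127 CPM at P7), both being protocadherin adhesion genes. Pard3, a polarity protein that granule cells use when they leave the outer layer, had 70.6, 88.8, 393 and 284 CPM at P12, against 6.76, 17.99, 15.1, 20.4 and 14.97 CPM at P7 (log2 fold change 3.88 ± 0.32 (SE), adjusted p = 1.20e-14). The stages did not overlap at Ntn1 or Pard3, both stable calls, and at both P12 replicates 3 and 4 were far above replicates 1 and 2. Clustered protocadherins, whose reads can be shared among near-identical neighbours, had 19 lower and 0 higher of 54 (median -0.25, -0.09 trended, 0.69 with library totals).

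Members of signalling families were more often lower than higher under TMM, and several medians moved to near 0 when trended. Notch pathway genes had 12 lower and 1 higher of 23 (median -1.05, -0.25 trended), with the ligand gene Dll4 at 29.6 ± 6.23 CPM at P12 and 397 ± 36.9 CPM at P7, the target gene Hes5 at 177 ± 95.1 CPM at P12 and 968 ± 144 CPM at P7 and the single rise at Mfng, a glycosyltransferase acting on Notch (1.37 ± 0.33). Wnt ligands, receptors and modulators had 39 lower and 2 higher of 53, with a median of -1.28 that turned to 0.02 when trended. Wnt7a, which granule cells release onto mossy fibres, fell under either scaling (-2.95 ± 0.26, -1.92 trended). The Wnt effector gene Tcf7l2 rose (73.2 ± 49.8 CPM at P12 and 6.47 ± 4.18 CPM at P7), and so did the receptor gene Fzd1. Without P12 replicate 1 or 3, 1 of these rises was called. BMP and TGF-beta family genes had 24 lower and 5 higher (Tgfb2, Tgfbr1, Tgfbr2, Bmpr1b and Bambi) of 44, with 3 higher without P12 replicate 3 (median -0.83, -0.03 trended, 0.14 with library totals). The higher share of 11.4% in this family was near that over all TSS (14.4%), and the lower share was 54.55%, beside 22.0%. FGF genes had 21 lower and 0 higher of 31 (median -1.15, -0.25 trended). G protein and cyclic nucleotide genes had 32 lower and 11 higher of 80 (median -0.38, -0.16 trended, 0.55 with library totals), with Adcy5, an adenylyl cyclase, at 14.7 ± 5.15 CPM at P12 and 219.7 ± 26.7 CPM at P7 and Pde5a, a cyclic GMP phosphodiesterase, at 44.2 ± 16.1 CPM at P12 and 13.04 ± 8.17 CPM at P7. Their higher share of 13.75% was near that over all TSS (14.4%), and their lower share was 40%, beside 22.0% over all TSS.

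Regulators of other lineages kept a high level at both stages, and the fall seen under TMM shrank to near 0 or turned in sign at the median when trended. All 39 Hox TSS were lower under TMM, -1.59 at the median, but the trended median was 0.0053, with 2 higher and 4 lower, and 3 were stable falls, Hoxb8 and Hoxc5 among them. Median levels over Hox genes were 263, 296, 531 and 329 CPM in the P12 libraries, against 1015, 1149, 1169, 1152 and 885 CPM in the P7 libraries. Hoxd10 had 461, 510.2, 664 and 443 CPM at P12, against 1853, 1988, 1665, 1350.0 and 1305 CPM at P7 (log2 fold change -1.65 ± 0.24 (SE), adjusted p = 9.26e-08, 0.14 trended). Other homeobox genes had 93 lower and 1 higher of 101 under TMM, with a median of -1.45 that turned to 0.08 when trended, with 23 higher and 15 lower. The higher member was Six5. Forkhead genes had 25 lower and 1 higher (Foxp2) of 37, with -1.31 at the median and -0.04 trended. Sox, T-box and Gata genes had 28 lower and 3 higher of 39, and their median of -1.37 turned to 0.04 when trended. Their 3 higher members were Sox4, Sox9 and Sox11. Basic helix-loop-helix genes had 29 lower and 0 higher of 41 (median -1.23, -0.08 trended). Atoh8, whose fall was stable, averaged 46.4 ± 22.96 CPM at P12 and 652 ± 180.3 CPM at P7. The 8 TSS with the highest level at both stages were Tbx20, Stap2, Tbx4, Hoxd10, C1ql4, Dio3, Shisa3 and Neurog1, with means of 488 to 623 CPM at P12 and 877 to 1632 CPM at P7. Stap2 was not called, and the other 7 were lower under TMM but had trended values above 0, from 0.14 at Hoxd10 to 0.54 at Dio3.

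**Figure D3:**
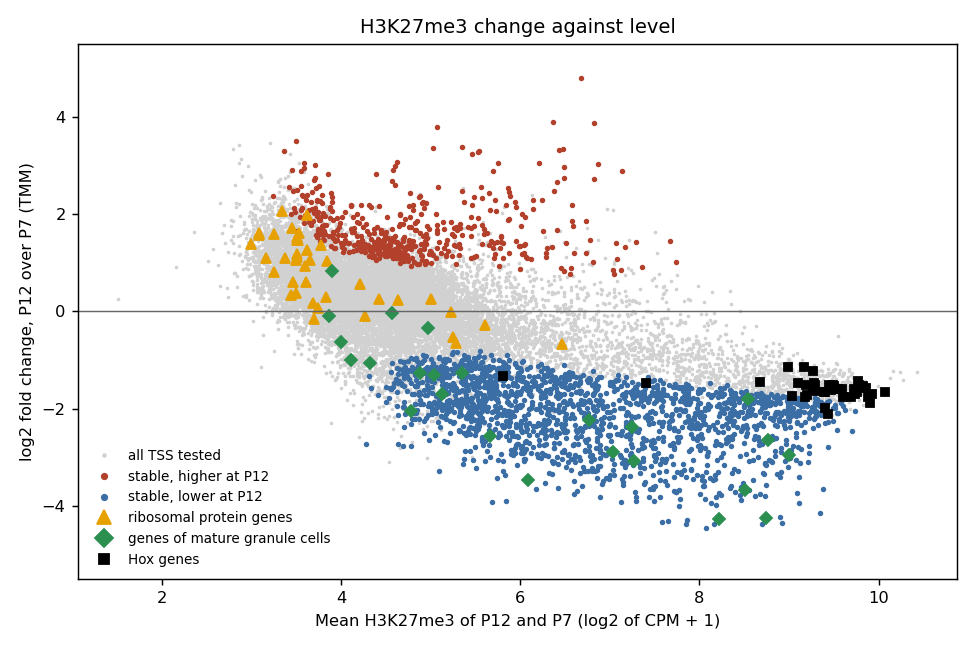
Log2 fold change (P12 over P7, TMM) against the mean log2 level of each of the 18089 TSS tested, with stable calls, ribosomal, mature granule cell and Hox genes coloured. Change falls with level across all TSS, with a median of 1.04 in the lowest of 10 level classes and -1.57 in the highest, and Hox genes lie along that trend while many mature granule cell genes lie below it.

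Ribosomal protein genes, which are active at both stages, gave the opposite yardstick. Of 85 in the count table, 40 had enough counts to be tested. Among these 40, 12 were higher and 1 (Rpl3l) was lower, with a median of 0.98 under TMM and 0.10 trended, where 1 was higher. The filter on counts works by stage, so a TSS of low level can pass through the stage where it is higher. Its part in these rises was not tested. Without P12 replicate 4 there were 3 higher and without P12 replicate 1 there were 5. Rpl3l was not called without P7 replicate 2, 4 or 5 or P12 replicate 1, 2 or 4, and without P12 replicate 3 there were 2 lower. Median levels over ribosomal genes were 16.4, 14.5, 13.9 and 15.4 CPM at P12, against 6.76, 7.497, 6.06, 7.66 and 7.48 CPM at P7. Olfactory and vomeronasal receptors, silent in this tissue, had 356 higher and 4 lower (Olfr55, Olfr71, Olfr94 and Olfr95) of 1417 (median 0.56, 0.43 trended), and the higher count lay between 164 and 196 without P12 replicate 1, 2 or 4 or P7 replicate 1 or 2. The rises rested largely on replicates 1 and 2, which gave 570 higher where later replicates gave 6. The median level over these receptors was 43.0, 42.0, 20.8 and 27.4 CPM in P12 libraries, against 23.7, 20.99, 9.08, 19.6 and 20.96 CPM in P7 libraries, so P12 replicate 3 lay within the P7 range. The lower count was 11 without P7 replicate 3 and 2 without P12 replicate 3 or 4 or any single one of P21 replicates 1 to 4. Their reads can be shared among similar family members. Keratins had 10 lower and 1 higher (Krt80, lost without P7 replicate 1 or 4 or P12 replicate 1, 3 or 4) of 49 (median -0.09, 0.03 trended, 0.86 with library totals). Their lower share of 20.4% was near that over all TSS (22.0%), and their higher share was 2.04%, below the 14.4% over all TSS.

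**Figure D4:**
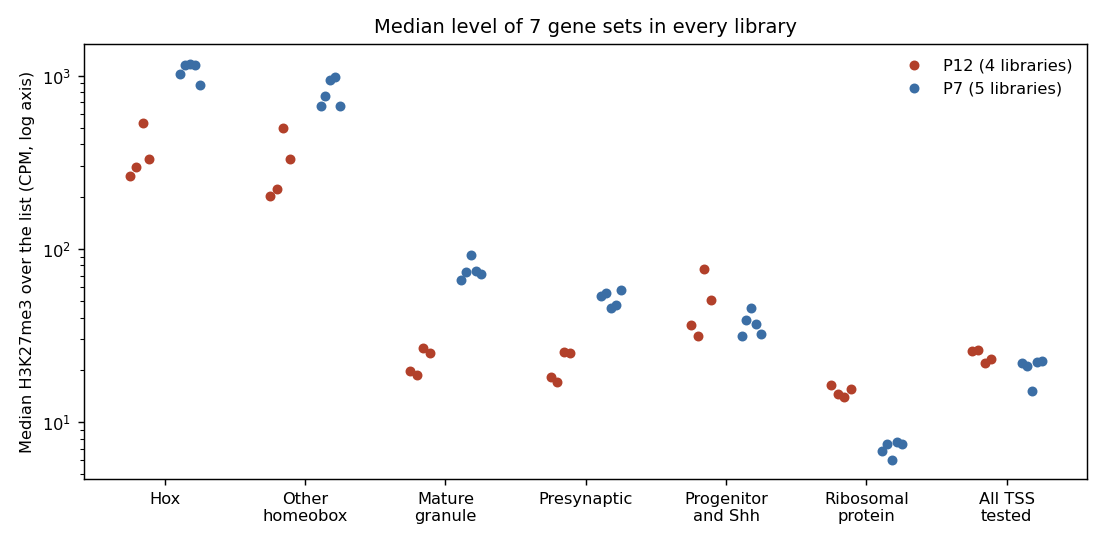
Median H3K27me3 level (TMM-scaled CPM, log axis) of 7 gene sets in each library, P12 left of P7. The ribosomal median lies at 13.9 to 16.4 CPM in P12 libraries and 6.06 to 7.66 CPM in P7 libraries, and the Hox median at 263 to 531 CPM in P12 libraries and 885 to 1169 CPM in P7 libraries.

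Among fetal timing genes 1 of 8 was higher and 6 were lower, with a median of -1.12 that turned to 0.30 when trended. The higher share of 12.5% was near the 14.4% over all TSS, and the lower share was 75%, beside 22.0%. Igf2bp3, an RNA-binding protein of the fetal programme, had 172, 192, 519 and 310.5 CPM at P12, against 98.1, 126, 127, 130.1 and 53.9 CPM at P7 (log2 fold change 1.46 ± 0.27 (SE), adjusted p = 1.51e-05). All 4 P12 libraries of Igf2bp3 exceeded all P7 libraries, as the rule for stable calls requires. Lin28a, its companion in that programme, averaged 235 ± 58.6 CPM at P12 and 973 ± 196 CPM at P7 (-0.56 trended). Of 17 tested Polycomb and demethylase genes 6 were lower and 1 (Pcgf5) was higher, with a median of -0.65 (-0.73 trended, 0.29 with library totals). Cbx7, a reader of H3K27me3, had 18.9, 33.9, 84.2 and 31.7 CPM at P12, against 279, 312, 312, 276 and 244 CPM at P7 (log2 fold change -2.73 ± 0.28 (SE), adjusted p = 1.10e-11). No peak covered the annotated start of Cbx7 in any library, nor that of Lrrtm1, Slc4a4 or Stap2, and the positions at which these were counted are not known. Genes of immature and migrating granule neurons had 11 lower and 1 higher (Itgb1, an integrin subunit) of 24 (median -0.66, -0.74 trended, 0.29 with library totals), with the microtubule protein gene Mapt at 12.2 ± 7.32 CPM at P12 and 86.3 ± 13.02 CPM at P7 and the adhesion gene Ncam1 at 9.39 ± 4.12 CPM at P12 and 45.2 ± 12.2 CPM at P7. Extracellular matrix genes had 32 lower and 17 higher of 88, and their median of -0.26 turned to 0.02 when trended and 0.69 with library totals. These shares, 36.4% lower and 19.3% higher, stood beside 22.0% and 14.4% over all TSS. Fn1, fibronectin, rose (2.17 ± 0.33) and the protease gene Adamts18 fell (-3.81 ± 0.29). Peaks lay within 1 kb of the Fn1 start in 4 of 4 P12 and 4 of 5 P7 libraries. The place where Fn1 was counted is not known. Solute carriers had 110 lower and 14 higher of 289, 8 higher without P12 replicate 1 or 4 (median -0.32, -0.23 trended, 0.62 with library totals), with the amino acid transporter Slc1a5 at 91.9 ± 16.9 CPM at P12 and 23.2 ± 11.7 CPM at P7 and the vesicular transporter Slc6a17 at 31.6 ± 20.3 CPM at P12 and 404 ± 58.96 CPM at P7. Slc1a5 had peaks within 1 kb of its start in 4 of 4 P12 and 3 of 5 P7 libraries.

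The label of granule cells was checked against markers of granule cells and of 7 other cell classes, since H3K27me3 is generally low at genes a cell uses. Neurod1, the sorting marker, is listed at 0 in every library of both marks and was taken as not measured. Peaks lay within 1 kb of its annotated start in 3 of 5 P7 libraries and 0 of 4 P12 libraries. Zic1 averaged 5.45 ± 3.56 CPM at P12 and 14.9 ± 5.01 CPM at P7, and Rbfox3, which encodes NeuN, 11.4 ± 0.77 CPM at P12 and 18.5 ± 11.95 CPM at P7. Gabra6, another granule cell marker, did not fall with the genes of mature granule cells above. It averaged 13.4 ± 5.08 CPM at P12 and 13.7 ± 1.37 CPM at P7 (-0.08 ± 0.41, not called). No library had a peak near its start. Granule cell markers were not all low, since Barhl1 averaged 47.0 CPM at P12 and 96.3 CPM at P7, with peaks in 5 of 5 P7 libraries. Gad1 of inhibitory neurons averaged 337 ± 106 CPM at P12 and 985 ± 105 CPM at P7, and Olig2 of the oligodendrocyte lineage 369.9 ± 125 CPM at P12 and 1109 ± 94.6 CPM at P7. Other markers of other cells were as low as those of granule cells, among them Sox9 (10.6 CPM at P12 and 2.64 CPM at P7), Pecam1 (8.66 CPM at P12 and 7.34 CPM at P7), Pcp2 (25.2 CPM at P12 and 23.2 CPM at P7) and Mbp (22.8 CPM at P12 and 46.7 CPM at P7). Sox9 had peaks within 1 kb of its annotated start in 2 of 4 P12 and 4 of 5 P7 libraries. Where it was counted is not known, so its low count does not show that its start lacked the mark. The 7 granule cell markers measured summed to 105 to 151 CPM in P12 libraries and 177 to 265 CPM in P7 libraries, and Zic2 and Etv1 were at 0 in at least 1 library. The 4 interneuron markers summed to 1031 to 1751 CPM at P12 and 3280 to 3904 CPM at P7, and the 4 of Purkinje cells to 370.1 to 651 CPM at P12 and 1301 to 1508 CPM at P7, most of it from Skor2 (336 CPM at P12 and 1183 CPM at P7). The 4 of unipolar brush cells and nuclei summed to 465 to 852 CPM at P12 and 1768 to 2205 CPM at P7, and the 4 of the oligodendrocyte lineage to 511 to 1115 CPM at P12 and 2278 to 2672 CPM at P7. Astrocyte markers summed to 201 to 443 CPM at P12 and 342 to 529.9 CPM at P7, and microglial markers to 86.1 to 124 CPM at P12 and 81.8 to 105 CPM at P7. Vessel markers summed to 377 to 618 CPM at P12 and 942 to 1254 CPM at P7, most of it from Cldn5 (327 CPM at P12 and 932 CPM at P7). In the wider marker lists, the counts of higher and lower TSS were 2 and 8 of 11 for interneurons, 0 and 9 of 9 for unipolar brush cells and nuclei, 2 and 5 of 10 for Purkinje cells and 0 and 7 of 12 for the oligodendrocyte lineage. They were 5 and 5 of 16 for astrocytes, 2 and 2 of 12 for microglia and 1 and 2 of 11 for vessels and meninges. Over all TSS 14.4% were higher and 22.0% lower, and the shares for microglia (16.7% in each direction) and vessels (9.09% higher, 18.2% lower) were near these. The higher ones were Kit and Sorcs3 (interneurons), Itpr1 and Foxp2 (Purkinje cells), Gfap, Sox9, Hopx, Gja1 and Vim (astrocytes), P2ry12 and Ptprc (microglia) and Tek (vessels). The lower ones were Calb1, Skor2, Lhx5 and Car8, among others (Purkinje cells), Slc1a2, Gdf10, Gjb6, Nes and Slc4a4 (astrocytes), C1qa and C1qc (microglia) and Cldn5 and Flt1 (vessels). Without single libraries the Purkinje cell falls numbered 3 (P7 replicate 1 or P12 replicate 2) and the astrocyte rises 3 (P12 replicate 1 or 3). The microglial rises then numbered 0 or 1 (P7 replicate 1 or 2 or any P12 library), the microglial falls 1 or 4 (4 without P7 replicate 3), the vessel falls 4 (P7 replicate 3 or P12 replicate 3) and the vessel rise 0 (P7 replicate 1 or 2 or P12 replicate 1, 2 or 3). Cldn5 and Flt1 turned to 0.08 and 0.34 when trended. The part of other cells in the results was not tested.

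Within the input arrangements the directions held, with other sizes. The fit over replicates 1 and 2 called 1917 TSS higher and 3648 lower, and the fit over later replicates 787 higher and 2256 lower. Replicates 1 and 2 share an input and may come from 1 preparation, so p-values in their fit measure only the spread between them. Of lower TSS present in both fits, 3599 of 3602 had the same sign in both, with medians of -1.88 over replicates 1 and 2 and -1.25 over later ones. Of higher TSS, 2034 of 2043 had the same sign in both, with medians of 1.24 over replicates 1 and 2 and 1.16 over later ones. Because the calls come from the same libraries, this is a description of spread and not a second test. Among leading falls the log2 fold changes in replicates 1 and 2 and in later ones were -4.58 and -3.97 at Cacna1g, -4.99 and -3.97 at Junb and -4.22 and -3.70 at Grin1. Among leading rises they were 2.62 and 3.55 at Zeb2, 2.13 and 3.93 at Gas1 and 1.28 and 3.18 at Cxcr4.

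**Figure D5:**
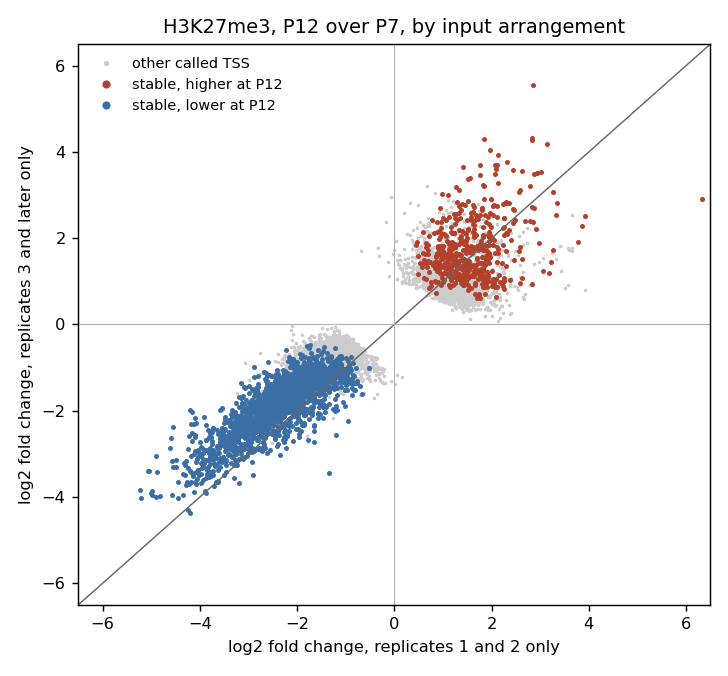
Log2 fold change (P12 over P7) of called TSS in the fit over replicates 3 and later against the fit over replicates 1 and 2, with stable calls coloured. Of the called TSS in both fits, 2034 of 2043 higher and 3599 of 3602 lower ones have the same sign in both.

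Peak lists, deposited by the authors for each library, gave a second readout of the same libraries. Within 1 kb of an annotated start, a peak was found in at least 2 libraries at 4166 TSS at P12 and 6720 at P7, of which 3828 were shared, 338 had one at P12 alone and 2892 at P7 alone. With peaks in every library of the stage, the numbers were 1858 at P12 and 3756 at P7. With peaks in both of replicates 3 and 4, the numbers were 4125 at P12 and 5009 at P7, with 694 at P12 alone and 1578 at P7 alone. With peaks in both of replicates 1 and 2 they were 1859 at P12 and 3892 at P7, with 61 at P12 alone and 2094 at P7 alone. Of the 1812 stable falls, 999 (55.1%) had a peak at P12 and 1695 (93.5%) at P7. Of the 484 stable rises, 177 (36.6%) had a peak at P12 and 75 (15.5%) at P7. Rises without a peak at P12 thus made up the larger share, 307, and their median levels were 29.4 CPM at P12 and 9.74 CPM at P7. Rises with a peak at P12 had median levels of 72.4 CPM at P12 and 19.4 CPM at P7.

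H3K4me3 and CpG content differed between these sets as a description, with no test. At stable falls the median H3K4me3 level was 41.5 CPM at P12 (2 libraries) and 28.6 CPM at P7 (3 libraries), beside 26.5 CPM at P12 and 16.3 CPM at P7 over all TSS. At all 484 stable rises it was 27.8 CPM at P12 and 18.9 CPM at P7. At the 307 without a P12 peak it was 25.5 CPM at P12 and 16.1 CPM at P7, whereas at the 177 with one it was 29.8 CPM at P12 and 51.6 CPM at P7. The median CpG count within 500 bases on either side of the start was 45 at stable falls, 37 at stable rises with a P12 peak, 12 at stable rises without one and 22 over all TSS tested. The ratio of observed to expected CpG had medians of 0.565, 0.491, 0.269 and 0.356 in the same order. On the X chromosome 3.33% of 870 tested TSS were higher and 6.78% were lower, beside 14.4% and 22.0% over all chromosomes.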

How the data were processed

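The authors deposited a table of read counts per TSS for the ChIP libraries and a peak list for each library, whose whole-number score was not used. The submitters' processing notes name HOMER 4.11, ChIPseeker 1.30.3 and build mm10. The aligner, the caller's settings and the span over which a TSS was counted are not stated in these sources. A gene's annotated start on GRCm38.p6, used for peaks and CpG, can therefore differ from the place counted.

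Counts of all 14 H3K27me3 libraries (P7, P12 and P21) were fitted with edgeR 4.0.16 in R 4.3.3, with filterByExpr, TMM scaling, stage and input arrangement as terms, and a robust quasi-likelihood test of P12 over P7. Two-sided p-values were adjusted over 18089 TSS by the Benjamini-Hochberg method. The trended scaling used a loess curve per library (span 0.3) as offsets. Alternatives, DESeq2 1.42.0 among them, are given in the closing section. Scripts were tested on simulated data.

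The naming rule took the 12 largest stable rises and 12 largest falls with at least 10 CPM in the higher stage, up to 3 stable calls per list and direction by p (up to 2 members by level where a list had none), and 8 TSS with a high level at both stages, passing over predicted, small RNA and multi-copy genes. Members and lists were chosen with earlier results of these data known. P21 libraries entered the fit only to share the estimates. A few members that the rule would name are not reported here.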

Additional observations from a re-analysis of the deposited data

Results flagged for a closer look

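Among named genes, 22 of 338 groups (the libraries of 1 stage at 1 gene) held a library whose distance to its nearest neighbour was large for the range of the group. Chance gives about 1 in 20. Of 12 such groups at P12, 9 had replicate 3 as the high library. Replicate 3 had 57.4 CPM at Cacna1e, 30.7 CPM at Gabrb1, 262 CPM at Bdnf, 481 CPM at Cdkn2b and 343 CPM at Hoxc5. It had 185 CPM at Prrx1, 125 CPM at Foxh1, 456.4 CPM at Id3 and 724 CPM at Tbx4. Replicate 3 also had the highest ratio of the 95th percentile to the median count among P12 libraries, 12.9, and the part of this in its high values was not tested. The other P12 libraries that stood apart were replicate 1 at Timm13 (22.4 CPM, the highest) and at Tubg2 (5.16 CPM, the lowest) and replicate 4 at Pcdhga11 (22.3 CPM, the lowest).

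At P7, replicate 2 was highest at Kcna6 (636 CPM), Gabrd (765 CPM) and Car11 (1367 CPM). Replicate 5 was lowest at Nodal (537 CPM) and Prrx1 (455 CPM). Replicate 3, the library with the most TSS at 0 (28.7%), was highest at Pde5a (27.3 CPM) and Krt77 (148 CPM) and lowest at Hopx (0 CPM). Replicate 1 was highest at Slc1a4 (8.46 CPM) and replicate 4 at Slc4a4 (113 CPM).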

How the results depend on the processing

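The split into higher and lower TSS (2609 and 3983 of 6592 called) depended most on scaling. Library totals gave 13744 called (11667 higher, 2077 lower), RLE factors 3775 higher and 3734 lower, the trended scaling 1689 higher and 2875 lower, and DESeq2 3584 higher and 3695 lower. A tested minimum change of 1 on the log2 scale left 2111 (254 higher, 1857 lower). TSS with a peak alone, which are fewer to test, gave 3784 called, 2006 of them lower. Replicates 1 and 2 summed, which leaves fewer samples, gave 4096 called (965 higher), and replicates 3 and later alone 3043 (787 higher, 2256 lower). The main fit counts replicates 1 and 2 as separate, though they agreed more closely than other pairs. Their chi-square of raw counts per degree of freedom was 1.2 at P12 and 1.42 at P7. Other pairs had 3.13 to 6.31 at P12 and 1.65 to 5.29 at P7. Leaving out single libraries gave 4821 to 7118 called, 1364 to 2885 higher and 3457 to 4295 lower. The replicate block gave 6811 called (2845 higher, 3966 lower). Same-numbered P12 and P7 libraries deviated from their stage means with correlations of 0.318, 0.196, 0.295 and 0.0734. Unlike-numbered ones ranged from -0.372 to 0.24, the last for P12 replicate 2 with P7 replicate 1. Taken from the means within stage and input arrangement, same-numbered values were 0.0713, 0.0713, 0.131 and 0.00748. Unlike-numbered ones then reached 0.198, so the numbers were not taken to pair libraries. Of 169 named genes, 12 lost their call with library totals, 26 under the minimum change, 11 of 150 among TSS with a peak, 8 in replicates 1 and 2 and 13 in later ones. Under the trended scaling 10 changed sign, at log2 fold changes of 0.20 (Cdkn2a), 0.34 (Flt1), 0.078 (Cldn5), 0.46 (Tbx20), 0.23 (Tbx4), 0.14 (Hoxd10), 0.33 (C1ql4), 0.54 (Dio3), 0.47 (Shisa3) and 0.51 (Neurog1). Also when trended, 2 genes not called under TMM were called higher, Cdkn2b (1.45) and Stap2 (1.20). The cause was not tested. Starts with a peak counted at the start itself numbered 3505 at P12 and 5039 at P7, and 2453 and 6151 after removal of peaks overlapping the library's own input. Low TSS rest on few counts. In P7 replicate 3 (529047 counts) the median count was 3, and 28.7% of all TSS in the table had none. P7 replicate 2 (566960 counts) had none at 11.8% and P12 replicate 1 (432257 counts) at 5.91%. The cause of this difference was not tested.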
